A study of Mus musculus with 20 samples.

Results

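The change between day 2 and day 4 of adipocyte differentiation was followed in 3T3-L1 cells in which Tcf7l2 was silenced, using 4 of the 20 RNA-seq libraries of the series, 2 at each day. The members were taken from the labels, as every library carrying the hairpin against Tcf7l2 (shTcf7l2) at day 2 or day 4. The 4 libraries with a scrambled hairpin (shScr) at the same days served as the control arm. In full, the series holds both hairpins at days 0, 2, 4, 6 and 8, with 2 libraries in each of 10 groups.

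3T3-L1 is an established mouse preadipocyte line that takes on the features of fat cells when stimulated with hormones. Apart from the hairpin and the day of differentiation, all groups used here share the preparation described next. The medium of the cells at each day is not described here. Early passage cells were infected with a lentiviral SMARTvector carrying 1 or the other hairpin, selected with puromycin as a mixed population rather than as clones, and put through adipocyte differentiation without the routine addition of a thiazolidinedione, a drug class that activates the fat cell regulator PPARG. The labels name the hairpin of these libraries only as specific for Tcf7l2, and state that findings from 1 hairpin were checked with others, whose libraries are not analysed here. In these libraries, effects of the 1 hairpin and of the loss of Tcf7l2 cannot be told apart. Nothing in the labels says whether both libraries of a group were grown as separate cultures, and p-values then measure only the spread between these samples.

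Tcf7l2 is a DNA-binding factor of the Tcf/Lef family that recruits beta-catenin to target genes when Wnt signals are present, and Wnt signals are known for restraining fat cell formation. Differentiation of 3T3-L1 cells starts with a hormone mixture that commonly holds a glucocorticoid, an agent that raises cyclic AMP, and insulin. The early regulators CEBPB and CEBPD respond to it, the cells divide, and PPARG and CEBPA then switch on the genes of lipid storage and secreted fat cell proteins.

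Levels below are normalised read counts on 1 scale for the 8 libraries of days 2 and 4, and changes are differences of log2(normalised count + 2), day 4 minus day 2, which understates the change of genes with few reads. These 8 libraries held 23274311 to 33973608 reads. Across genes, the log2 difference between the 2 libraries of a group had an SD of 0.40 in knockdown cells at day 2, 0.41 in knockdown cells at day 4, 0.42 in scrambled cells at day 2 and 0.69 in scrambled cells at day 4. The scrambled day 4 pair thus stood apart from the others, and all 8 libraries share 1 estimate of the spread in the test.

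The targeted gene was checked first. Tcf7l2 (ENSMUSG00000024985.11) stood at 461 and 477 normalised counts in the knockdown libraries of day 2 and at 368 and 350 in those of day 4. The scrambled libraries held 1155 and 1226 at day 2 and 1077 and 1167 at day 4, so no knockdown library reached a scrambled one, and the knockdown mean was 39.4% of the scrambled mean at day 2 and 32.0% at day 4. Between the days the knockdown level differed by -0.39 on the log2 scale (SE 0.11), with both day 4 libraries below both day 2 libraries, which did not pass the test (limma adjusted p = 0.0934). With a replicate block, in which the library number 1 or 2 of the labels is a term of the fit, the limma adjusted p was 0.0341.

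Of 15896 genes tested, 1119 (7.04%) changed between day 2 and day 4 in the knockdown cells at a limma adjusted p under 0.05. Of these, 646 (4.06% of the genes tested) rose and 473 (2.98%) fell, and the median change over all genes was 0.00. A change of at least 2-fold was reached by 591 (3.72%), of which 428 rose and 163 fell. With the replicate block, 2955 of the 15896 genes were called, of which 1488 rose and 1467 fell. Counts of called list members below are to be read beside these values over all genes, without the block or with it. Among genes above the median level, the largest rises were in genes of the fat cell (Cfd, Adipoq, Gpd1, Fabp4, Cd36, Plin1) and in genes of the extracellular matrix and cell surface (Prelp, Itgbl1, Cdsn). The largest falls at that level included genes known to answer to glucocorticoids, cyclic AMP or inflammation (Lcn2, Pde4b, Serpina3n, Dusp1, Nr4a1), the secreted proteins Prg4, Retnla and Wnt4, and Top2a, the topoisomerase that untangles DNA in dividing cells.

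**Figure D1:**
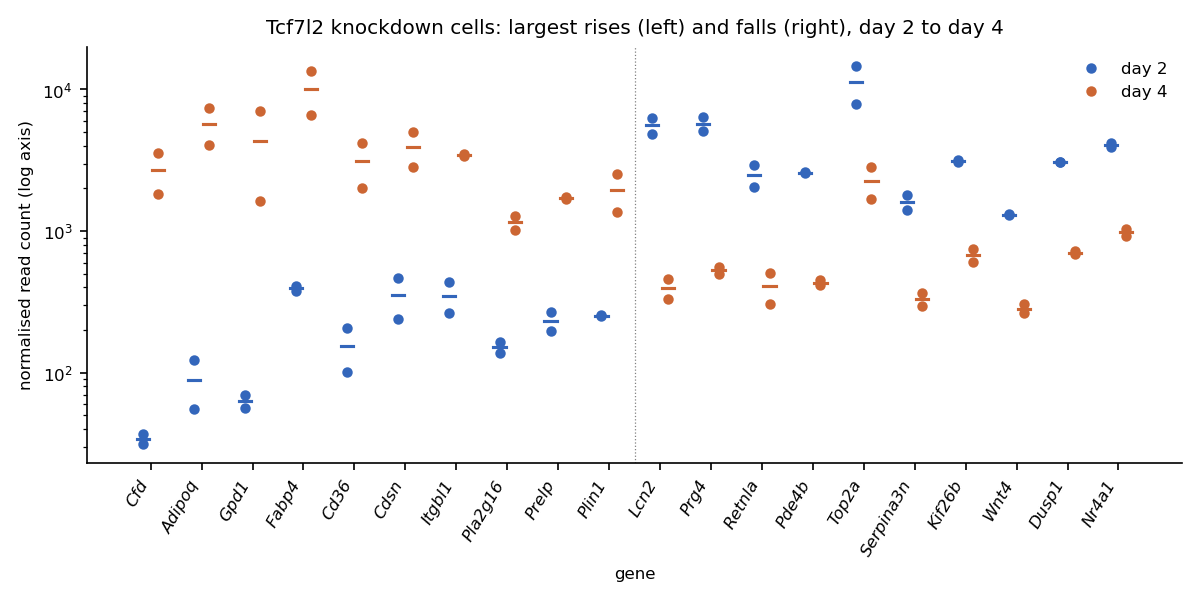
Normalised read counts (vertical axis, log scale) of the 10 genes with the largest rise and the 10 with the largest fall among called genes above the median level, in the 2 knockdown libraries of day 2 (blue) and of day 4 (orange). Points are libraries and short bars are group means. For each gene shown both day 4 libraries lie beyond both day 2 libraries, which the choice of these genes required.

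The fat cell genes showed the widest changes. Adipoq (ENSMUSG00000022878.5), which encodes the hormone adiponectin, was at 122 and 55.5 normalised counts in the day 2 libraries and at 4067 and 7389 in the day 4 libraries. Its change was 6.02 on the log2 scale (SE 0.61, limma adjusted p = 0.00637, 95% interval 4.58 to 7.46), and the days did not overlap. In bulk RNA, fewer cells of a type and less RNA per cell cannot be told apart, so such a rise may stand for more cells with the transcript or more of it in each. Cfd, the secreted serine protease adipsin, went from 37.0 and 31.3 to 1832 and 3543 (log2 change 6.15, SE 0.77, limma adjusted p = 0.0107). Fabp4, a carrier of fatty acids in the cytosol, went from 379 and 409 to 6608 and 13510 (log2 change 4.58, SE 0.60, limma adjusted p = 0.0124). Cd36, which takes up fatty acids at the cell surface, went from 102 and 206 to 2004 and 4218, a log2 change of 4.31. In all 4 genes the second day 4 library was above the first, by far less than the distance between the days.

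Of 24 tested mature adipocyte markers and adipokines, 8 rose and 1 fell, a share above the 4.06% of all genes that rose, and the median change of the list was 1.56 on the log2 scale. The members that rose were Adipoq, Fabp4, Cfd, Cd36, Adig, Mrap, Lgals12 and Rarres2, with changes from 2.96 for Rarres2 to 6.15 for Cfd. Rarres2, the precursor of the chemotactic adipokine chemerin, was at 56.5 in both day 2 libraries and at 358 and 575 at day 4. The member that fell was Serpina3n, a protease inhibitor of the acute phase, from 1399 and 1800 to 298 and 364 (log2 change -2.26, SE 0.17, limma adjusted p = 0.00206). Slc2a4, the insulin-responsive glucose transporter, had a log2 change of 4.28 and Retn, the adipokine resistin, one of 3.07. Neither passed the test without the replicate block (limma adjusted p = 0.0878 and 0.101), and both passed with it (0.00513 and 0.026), when 11 members of the list rose and 1 fell. With the block in the 4 knockdown libraries alone, a fit added after the data were seen, Adipoq was not called (limma adjusted p = 0.098). In 20 of the 24 tested members the second day 4 library was above the first, against 52.7% of all genes tested.

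Lipid storage and lipid synthesis moved less evenly. Plin1, the protein that coats and guards the lipid droplet, was at 254 and 250 at day 2 and at 1358 and 2534 at day 4 (log2 change 2.87, SE 0.57, limma adjusted p = 0.0329). Abhd5, which activates the lipase PNPLA2, fell from 5846 and 5960 to 3836 and 4030 (log2 change -0.59, SE 0.13, limma adjusted p = 0.0468). These were the 2 called members of 16 lipid droplet and lipolysis genes, against 7.04% of all genes called, and the median change was 0.61. Cidec, which drives droplet fusion, was at 369 and 532 at day 2 and at 3372 and 9051 at day 4, and its change of 3.63 missed the threshold (limma adjusted p = 0.0526). With the replicate block the limma adjusted p of Cidec was 0.00672, and 6 members of the list rose and 1 fell.

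Of 22 genes of triglyceride and fatty acid synthesis, only Gpd1 was called in the fit described, against 4.06% of all genes that rose. The median change was 0.40. Gpd1, which makes the glycerol backbone of triglycerides, went from 69.8 and 56.5 to 1621 and 7052 (log2 change 5.71, SE 1.10, limma adjusted p = 0.0311). Both day 4 libraries lay above both day 2 libraries, and they differed from each other more than those of Adipoq did. Thrsp, a regulator of lipogenesis, differed more still, at 335 and 2226 in the day 4 libraries against 48.3 and 42.4 at day 2 (log2 change 4.20, SE 1.48, limma adjusted p = 0.149, and 0.0315 with the replicate block). Fasn, the fatty acid synthase, and Acly, which supplies its acetyl groups, had changes of -0.15 and -0.25, and neither was called. With the replicate block, 6 of the 22 genes rose. With the block in the 4 knockdown libraries alone, Gpd1 was not called (limma adjusted p = 0.129). In all 22 genes the second day 4 library was above the first, against 52.7% of all genes tested.

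Energy metabolism gave few calls. None of 17 fatty acid oxidation genes, 18 genes of branched-chain amino acid breakdown, 20 TCA cycle genes and 27 respiratory chain subunits was called by limma, and the medians of these lists were 0.22, 0.35, 0.14 and 0.08. The nearest were Acadsb of branched-chain amino acid breakdown, at 2539 and 2181 at day 2 and 3233 and 3344 at day 4 (log2 change 0.48, SE 0.13, limma adjusted p = 0.0714, and 0.0321 with the replicate block), and Acaa2 of fatty acid oxidation, with a change of 0.42. Cholesterol synthesis and uptake gave 0 calls of 22 genes and a median of 0.14. With the replicate block, 3 genes of branched-chain amino acid breakdown rose, and 2 genes of cholesterol synthesis and uptake rose and 2 fell. Of all 15896 genes tested, 1488 rose and 1467 fell in that fit. Without the second knockdown library of day 4 the medians of the lists of cholesterol, fatty acid oxidation, the TCA cycle and the respiratory chain turned to -0.10, -0.01, -0.05 and -0.09.

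Among 18 genes of insulin signalling and glucose handling, the adaptors of the insulin receptor moved in opposite directions. Irs1 rose from 992 and 798 to 2099 and 1729 (log2 change 1.10, SE 0.17, limma adjusted p = 0.0188). Irs2 fell from 1749 and 2426 to 759 and 815 (log2 change -1.39, SE 0.28, limma adjusted p = 0.0361). The days did not overlap for either gene, and no other member was called without the replicate block, while 2 rose and 1 fell with it. Pkm2, a glycolytic enzyme, was at 37710 and 46840 at day 2 and at 24100 and 27510 at day 4, with a change of -0.71 that did not pass (limma adjusted p = 0.249).

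The transcription factors of the programme gave few calls. Pparg was at 1638 and 1992 normalised counts at day 2 and at 2150 and 2729 at day 4 (log2 change 0.42, SE 0.42, 95% interval -0.58 to 1.42, limma adjusted p = 0.638), so the day 4 libraries were higher by an amount within the error of the fit. Cebpa overlapped between the days, at 2026 and 2231 against 1256 and 2538 (log2 change -0.25, limma adjusted p = 0.86). Among 12 late adipogenic transcription factors, Rxra, the partner of PPARG on DNA, fell by 0.61, from 13010 and 13200 to 8244 and 8970 (limma adjusted p = 0.0383). Nr1h3, the oxysterol receptor LXR alpha, was at 147 and 151 at day 2 and 430 and 727 at day 4, a difference of 1.89 that did not pass (limma adjusted p = 0.0789), and passed with the replicate block (0.0157). With the block, 3 of these 12 factors rose and 2 fell.

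None of the 10 early adipogenic regulators was called, and their median change was -0.33. Cebpb showed how strongly the numbered libraries could differ: it stood at 4520 in the first and 12870 in the second day 2 library, and at 1768 and 4002 at day 4. The days did not overlap, but the lower day 2 library was close to the higher day 4 library, and the change of -1.52 had an SE of 0.79 (limma adjusted p = 0.32). Cebpb passed with the replicate block at a limma adjusted p of 0.00208, and 1 of the 10 regulators rose and 2 fell. Cebpd was at 4680 and 4400 at day 2 and at 2870 and 3598 at day 4, without overlap (log2 change -0.50, SE 0.16, limma adjusted p = 0.11). Klf5, an early activator of Pparg, was at 728 and 879 and then at 390 and 483 (log2 change -0.88, limma adjusted p = 0.12).

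**Figure D2:**
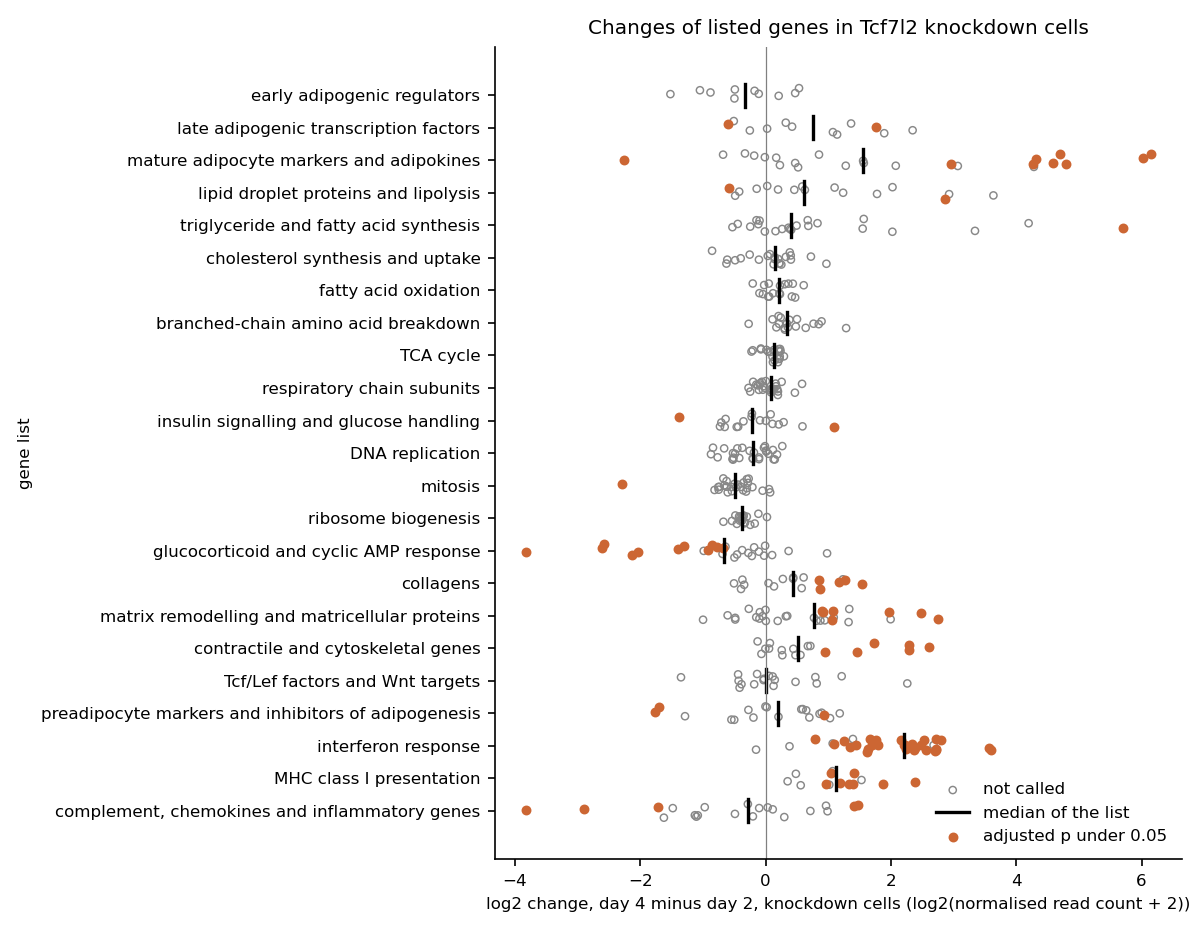
Log2 change from day 2 to day 4 in knockdown cells (horizontal axis, day 4 minus day 2) for the tested members of each gene list (vertical axis). Filled orange points are genes with a limma adjusted p under 0.05, open points are the others, and the black bar is the median of the list, which is 2.21 for the interferon response, 1.56 for mature adipocyte markers and -0.66 for the glucocorticoid and cyclic AMP response.

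Genes that answer to glucocorticoids or cyclic AMP were among those that fell between the days. Of 26 tested, 11 fell and none rose, against 2.98% of all genes that fell, with a median of -0.66. Lcn2 (ENSMUSG00000026822.9), the iron-carrier binding protein lipocalin 2, was at 4862 and 6292 at day 2 and at 332 and 459 at day 4 (log2 change -3.82, SE 0.32, limma adjusted p = 0.00288). Pde4b, which degrades cyclic AMP, went from 2607 and 2559 to 451 and 416 (log2 change -2.57, SE 0.19, limma adjusted p = 0.00206). Dusp1, a phosphatase of MAP kinases, went from 3094 and 3061 to 718 and 686 (log2 change -2.13, SE 0.11, limma adjusted p = 0.00117), and Nr4a1, an orphan nuclear receptor, fell by 2.04. For these genes the days were several-fold apart while the libraries of a day differed little. The other members that fell were Nr4a3, Pde10a, Ddit4, Angptl4, Errfi1, Fkbp5 and Sik1, by 0.68 to 2.61. Tsc22d3 and Per1, classical glucocorticoid targets, had changes of -0.18 and -0.28 and were not called. With the replicate block, 14 members of the list fell and 1 rose.

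Several of the genes that fell most had been nearly silent before induction. Lcn2 stood at 8.59 and 4.54 normalised counts in the knockdown libraries of day 0, and at 83.6 and 104 in those of day 8. Prg4, the lubricating proteoglycan 4, went from 7.51 and 11.8 at day 0 to 5065 and 6423 at day 2, 498 and 560 at day 4, and 87.5 and 67.3 at day 8. Retnla, a secreted resistin-like protein, had 0 reads in both knockdown libraries of day 0, 2064 and 2932 at day 2, 307 and 507 at day 4, and 13.1 and 16.4 at day 8. The log2 change from day 2 to day 4 was -3.43 for Prg4 (SE 0.23, limma adjusted p = 0.00144) and -2.63 for Retnla (SE 0.36, limma adjusted p = 0.0126). Day 2 was thus the day with the highest of the 5 group means for these 3 genes. Levels of days 0, 6 and 8 come from separately normalised tables scaled together, and are given as a description.

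**Figure D3:**
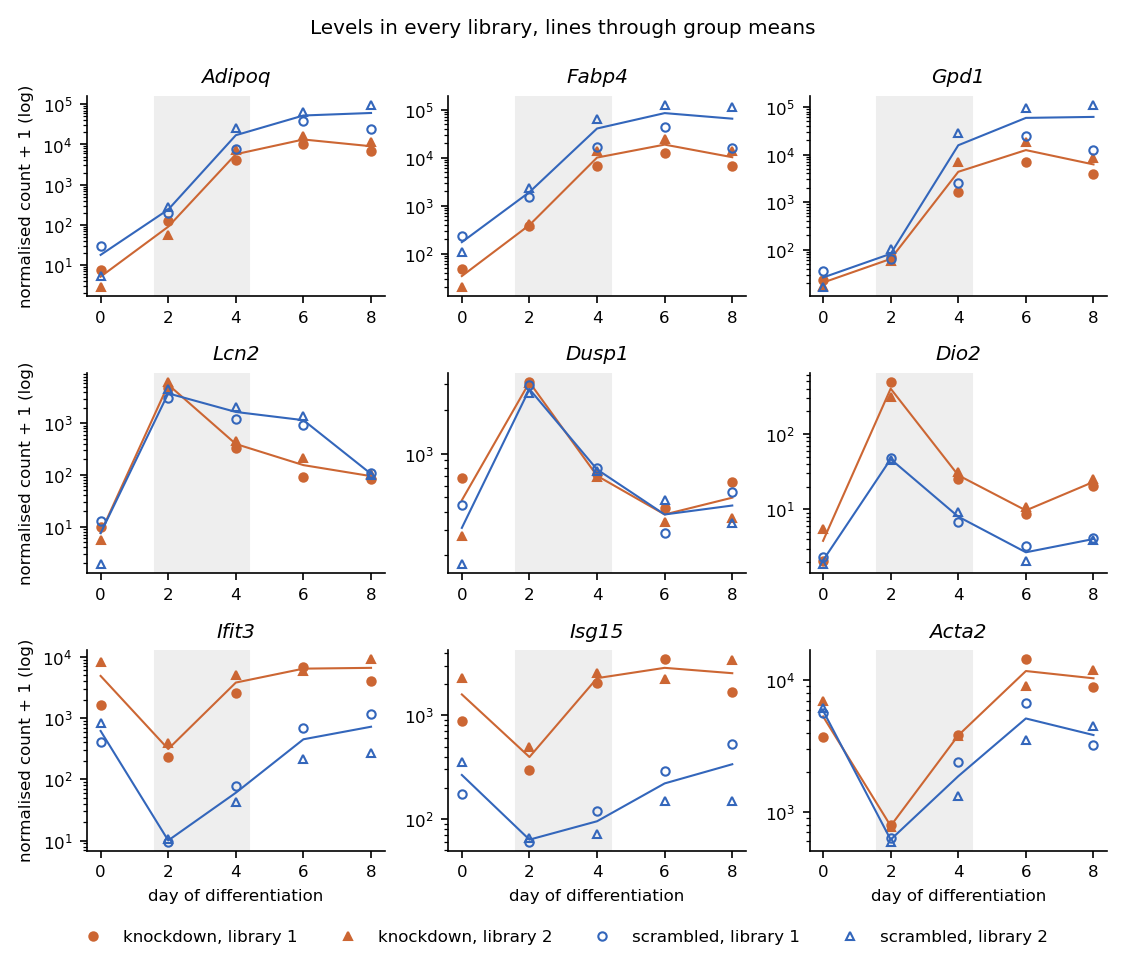
Normalised read count plus 1 (vertical axis, log scale) by day of differentiation for 9 genes in every library of the series, with knockdown libraries filled orange and scrambled libraries open blue. Lines join group means and the grey band marks days 2 and 4. Lcn2 and Dio2 peak at day 2 in both arms, and Ifit3, Isg15 and Acta2 have their lowest knockdown mean at day 2.

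Dio2, the deiodinase that activates thyroid hormone and is best known from brown fat, also had its highest knockdown mean at day 2. It was at 1.07 and 4.54 at day 0, at 491 and 309 at day 2, and at 24.5 and 30.1 at day 4 (log2 change -3.75, SE 0.31, limma adjusted p = 0.00271), and it was the only called gene of 5 tested brown and beige markers. Kif26b, a kinesin-family protein, fell from 3067 and 3196 to 609 and 742, and Wnt4, a secreted Wnt ligand, from 1314 and 1298 to 264 and 304. Their changes were -2.22 (SE 0.15, limma adjusted p = 0.00173) and -2.20 (SE 0.12, limma adjusted p = 0.00117), and the days of each gene lay far apart.

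Genes of cell division gave 1 call. Top2a was at 7883 and 14660 at day 2 and at 1683 and 2842 at day 4 (log2 change -2.30, SE 0.41, limma adjusted p = 0.025). It was the 1 called gene of 28 mitosis genes, against 2.98% of all genes that fell. Of the 28, 26 had a negative change, and the median was -0.48. In 4 of the 28 both day 4 libraries lay below both day 2 libraries, against 28.1% of all genes, and the median was -0.10 without the second knockdown library of day 2 and -0.10 without the first of day 4. In all 28 the second library was above the first at both days, against 49.5% of all genes at day 2 and 52.7% at day 4. Of 28 DNA replication genes none was called, with a median of -0.20 that turned to 0.11 without the second knockdown library of day 2. Rrm2, a subunit of the enzyme that makes deoxynucleotides, was at 581 and 969 at day 2 and at 349 and 480 at day 4, with a change of -0.87 (limma adjusted p = 0.171, and 0.0373 with the replicate block). Pcna, the sliding clamp of replication, was at 2999 and 3518 and then at 2237 and 2320, without overlap (log2 change -0.51, limma adjusted p = 0.0894, and 0.0379 with the replicate block). With the block, 6 replication genes and 2 mitosis genes fell, against 1467 of all 15896 genes tested.

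Ribosome biogenesis genes differed by little and mostly in 1 direction. Of 20 tested, 19 had a negative change and in 17 both day 4 libraries lay below both day 2 libraries, against 28.1% of all genes, with a median of -0.37. None passed the test in the fit without the block, and 8 fell with it. Nop56, a core protein of the particles that modify ribosomal RNA, was at 3789 and 4907 at day 2 and at 2636 and 2773 at day 4 (log2 change -0.67, SE 0.21, limma adjusted p = 0.111, and 0.0112 with the replicate block). Myc, a driver of such genes and itself a Wnt target in the Tcf/Lef list, was at 2037 and 2529 and then at 830 and 953, a change of -1.35 that just missed the threshold (limma adjusted p = 0.0513, and 0.00978 with the block).

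Matrix and contractile genes were among those that rose. Of 17 collagen genes, 5 rose and none fell, against 4.06% of all genes that rose, with a median of 0.44. Col1a1, a chain of the fibrillar collagen of type I, rose from 105400 and 88970 to 262500 and 301900 (log2 change 1.54, SE 0.21, limma adjusted p = 0.0124). The others were Col1a2, Col11a1, Col3a1 and Col6a3, with changes of 1.27, 1.18, 0.87 and 0.85, of which Col1a2 lay outside the naming rule and was named after its value was seen. Quantile normalization ended the calls of Col1a2 and Col3a1 and gave 3 that rose and 1 that fell. The replicate block gave 7 that rose and 1 that fell. The basement membrane chains Col4a1 and Col4a2 had changes of -0.39 and -0.37 and were not called.

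Of 29 genes of matrix remodelling and matricellular proteins, 7 rose and none fell, against 4.06% of all genes that rose, with a median of 0.77. Dcn, the proteoglycan decorin, rose from 3374 and 4369 to 13780 and 16510 (log2 change 1.97, SE 0.38, limma adjusted p = 0.0302). Adamts5, a protease that cleaves proteoglycans, rose from 2034 and 2120 to 4168 and 4477 (log2 change 1.06, SE 0.11, limma adjusted p = 0.00637). Wisp1, Postn, Sparc, Eln and Nov also rose, by 0.92, 0.90, 1.08, 2.49 and 2.76. Fn1, the fibronectin gene, had a change of -0.61 that was called only with the replicate block (limma adjusted p = 0.214 without and 0.0394 with it), when 12 members rose and 1 fell. Outside the lists, Prelp, a small proteoglycan of the matrix, rose from 197 and 266 to 1738 and 1687 (log2 change 2.89, SE 0.24, limma adjusted p = 0.0029), and Itgbl1, an integrin-like secreted protein, from 440 and 262 to 3403 and 3504 (3.34, SE 0.40, limma adjusted p = 0.00933).

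Of 18 contractile and cytoskeletal genes 6 rose and none fell, against 4.06% of all genes that rose, with a median of 0.52. Acta2, the smooth muscle actin, was at 796 and 766 at day 2 and at 3872 and 3764 at day 4 (log2 change 2.29, SE 0.25, limma adjusted p = 0.00753). Myl9, a myosin light chain, went from 58.5 and 50.4 to 344 and 336 (log2 change 2.60, SE 0.26, limma adjusted p = 0.00637). Actg2, Lmod1, Cnn2 and Tpm1 rose by 2.29, 1.73, 1.46 and 0.95, and 10 members rose with the replicate block. At day 0 the knockdown libraries held 3714 and 6928 of Acta2, a range that takes in both day 4 libraries. The skeletal muscle genes Myod1, Myog, Myf5 and Ckm were at 0 in all 4 knockdown libraries.

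Preadipocyte genes went both ways. Of 19 markers and inhibitors of adipogenesis, Ly6a fell from 6142 and 6367 to 1502 and 2272 (log2 change -1.76, SE 0.20, limma adjusted p = 0.00831) and Foxc2 by 1.70, while Pdgfrb rose by 0.93. Of all genes tested, 2.98% fell and 4.06% rose. Ly6a encodes the progenitor surface protein Sca-1, Foxc2 is a forkhead factor, and Pdgfrb is a growth factor receptor of mesenchymal cells. Pdgfra, Dlk1 and Cd34 had changes of -0.00, 0.59 and 1.03 and were not called, and the median of the list was 0.20. In the blocked fit 3 members rose and 4 fell.

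None of the 18 tested Tcf/Lef factors and Wnt targets was called by limma, and their median was 0.01. Lef1, a factor of the same family as Tcf7l2, overlapped between the days, at 565 and 457 against 435 and 491 (log2 change -0.14, 95% interval -0.64 to 0.37). Axin2, a common Wnt target, was not tested because it held 0 to 5.84 normalised counts in the 4 knockdown libraries. Sfrp2, a secreted Wnt-binding protein, was at 182 and 120 at day 2 and at 878 and 584 at day 4, without overlap (log2 change 2.26, SE 0.58, limma adjusted p = 0.0649, and 0.0106 with the replicate block). With the block, 1 member of the list rose and 3 fell, against 1488 and 1467 of all 15896 genes tested.

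The list with the largest share of called genes was that of the interferon response, the genes induced by the cytokines of antiviral defence through a complex of STAT factors and IRF9. Of 34 tested members, 28 rose and none fell, against 4.06% of all genes that rose, and the median change was 2.21. In 33 of the 34 both day 4 libraries lay above both day 2 libraries, against 29.6% of all genes tested. The promoters of the 4 members with the smallest adjusted p are printed to show the DNA element that this complex is known to bind. They are the 200 bases before the RefSeq transcription start on GRCm38.p6, 5′ to 3′ on the strand of the gene, whereas the authors' reads were aligned to mm9. RefSeq gives a second start for Gbp3, whose window (chr3:142560156-142560355, plus strand) holds 0 matches. Capitals mark each match to GAAANNGAAA or its reverse complement, the core of the interferon-stimulated response element.
Ifit3 (chr19:34583329-34583528, plus strand): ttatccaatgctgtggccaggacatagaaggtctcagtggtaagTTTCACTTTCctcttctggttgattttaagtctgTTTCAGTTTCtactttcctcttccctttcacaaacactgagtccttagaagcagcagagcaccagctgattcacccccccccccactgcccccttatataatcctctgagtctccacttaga
Gbp3 (chr3:142559844-142560043, plus strand): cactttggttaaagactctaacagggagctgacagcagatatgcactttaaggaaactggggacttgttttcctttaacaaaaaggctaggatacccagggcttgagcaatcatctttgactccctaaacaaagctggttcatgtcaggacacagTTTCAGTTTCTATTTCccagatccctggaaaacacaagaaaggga
Bst2 (chr8:71537473-71537672, minus strand): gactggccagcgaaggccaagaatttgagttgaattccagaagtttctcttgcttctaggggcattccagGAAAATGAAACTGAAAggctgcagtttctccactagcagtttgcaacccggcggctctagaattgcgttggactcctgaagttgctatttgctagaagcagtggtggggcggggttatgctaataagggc
Isg15 (chr4:156200819-156201018, minus strand): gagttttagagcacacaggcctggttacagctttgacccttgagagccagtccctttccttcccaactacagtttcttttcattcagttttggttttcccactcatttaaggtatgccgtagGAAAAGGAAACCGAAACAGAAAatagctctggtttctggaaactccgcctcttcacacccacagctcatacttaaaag

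Over windows from 250 bases before to 50 bases after the start, searched on both strands, GAAANNGAAA was found in 3.44% of 32851 RefSeq windows, or for 3.99% of 27025 genes when a gene with several starts counts once. Of 35 listed interferon genes 26 matched a window by symbol, and 15 of these (57.7%) held the element. Overlapping matches in 1 run, as in Isg15 and Bst2, were counted for each start. A match of letters is a description and shows no binding, and the list was assembled from genes known to answer to interferon. For comparison, the element of PPARG and its partner RXR, taken as 2 AGGTCA half-sites with 1 free base between them and up to 2 mismatches, was found for 4.4% of all genes and in 3 of 14 matched adipocyte genes, and TTTGAA, the cell cycle homology region, for 20.2% of all genes and in 16 of 22 matched mitosis genes.

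Ifit3, an antiviral RNA-response protein, stood at 233 and 390 normalised counts at day 2 and at 2548 and 5045 at day 4 (log2 change 3.56, SE 0.43, limma adjusted p = 0.00942). Gbp3, a guanylate-binding protein, went from 168 and 293 to 1368 and 1590 (log2 change 2.72, SE 0.32, limma adjusted p = 0.00899). Bst2, which tethers virus particles to the cell surface, went from 785 and 1212 to 5527 and 5696 (log2 change 2.52, SE 0.30, limma adjusted p = 0.00933). In each of these genes the lower day 4 library was several times the higher day 2 library. Isg15 (ENSMUSG00000035692.6), a ubiquitin-like modifier, went from 298 and 492 to 2039 and 2542 (log2 change 2.56, SE 0.32, limma adjusted p = 0.0104).

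The other members that rose spanned 0.78 for Ifi35 to 3.59 for Oas2, and included the factors Stat2, Irf7 and Irf9 at 1.67, 2.38 and 1.24 and the RNA sensors Ifih1, Dhx58 and Ddx58 at 1.64, 2.24 and 1.09. The 6 members that were not called were Usp18, Cmpk2, Ifi44, Oas3, Trim25 and Ifitm3. Usp18, which dampens interferon signalling, was at 108 and 285 at day 2 and at 814 and 1582 at day 4 (log2 change 2.68, limma adjusted p = 0.0568, and 0.0012 with the replicate block). Ifitm3 was the 1 member with a negative change, at 12900 and 12320 and then at 11830 and 10870 (log2 change -0.15, limma adjusted p = 0.834). With the block, Cmpk2 and Trim25 also passed (limma adjusted p = 0.0454 and 0.0401), and 31 members rose.

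For Ifit3 and Isg15, day 2 had the lowest knockdown mean of the 5 days. Ifit3 held 1643 and 8105 normalised counts in the knockdown libraries of day 0, more than the 233 and 390 of day 2, and 4055 and 9153 at day 8. Isg15 held 890 and 2298 at day 0 and 1692 and 3423 at day 8. In the libraries of day 0 and day 8 the second library was more than 2 times the first for both genes. At day 4 they lay closer for Isg15, at 2039 and 2542, but little closer for Ifit3, at 2548 and 5045. In 31 of the 34 tested interferon genes the second knockdown library of day 4 was above the first, against 52.7% of all genes. At day 2 this held for 32, against 49.5% of all genes, and in scrambled cells at day 4 for 5.

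The list of interferons and their receptors, which also holds Tlr3 and Irf3, gave 1 call. No tested interferon or interferon receptor was called. Of 15 listed, 6 were below 10 normalised counts in all 4 knockdown libraries and 9 were tested. Tlr3, a sensor of double-stranded RNA, rose from 344 and 350 to 927 and 1082 (log2 change 1.52, SE 0.20, limma adjusted p = 0.0123), and the other 8 were not called. Ifnar1, a chain of the receptor of type I interferons, was at 3000 and 3107 and then at 2673 and 2654 (log2 change -0.20, limma adjusted p = 0.319).

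Genes of antigen presentation by MHC class I were also among those that rose. Of 14 tested, 8 rose, against 4.06% of all genes that rose, and none fell, with a median of 1.13. In all 14 both day 4 libraries were above both day 2 libraries, against 29.6% of all genes. Psmb10, a subunit of the immunoproteasome, went from 621 and 693 to 1207 and 1374 (log2 change 0.97, SE 0.14, limma adjusted p = 0.0145). B2m, the light chain of MHC class I, went from 10510 and 13470 to 34660 and 28510 (log2 change 1.40, SE 0.23, limma adjusted p = 0.0206). Nlrc5, which switches on MHC class I genes, went from 50.3 and 105 to 312 and 484 (log2 change 2.38, SE 0.40, limma adjusted p = 0.0222), and the peptide transporter Tap1 rose by 1.41. H2-K1 and H2-D1, the classical heavy chains, belong to a family of near-identical genes between which reads can be split, and their changes of 1.07 and 1.02 were called only with the replicate block (limma adjusted p = 0.055 and 0.0648 without, 0.00614 and 0.0161 with it), when 12 members rose.

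Complement, chemokine and inflammatory genes did not move as 1 group. Of 21 tested, C1ra and C1s, proteases of the first complement component, rose by 1.47 and 1.40, and Lcn2, Saa3 and Cxcl5 fell. Over all genes tested, 4.06% rose and 2.98% fell. C1ra went from 2555 and 2054 to 6581 and 6159. Saa3, an acute phase protein, went from 241 and 339 to 42.0 and 31.9 (log2 change -2.90, SE 0.32, limma adjusted p = 0.00773). Cxcl5, a chemokine named after its value was seen, went from 354 and 453 to 147 and 99.2 (log2 change -1.71, limma adjusted p = 0.0464). With the replicate block, 2 members rose and 8 fell.

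Of 18 genes of the unfolded protein and integrated stress responses only Phgdh was called, against 7.04% of all genes, and the median was 0.24. Phgdh, the first enzyme of serine synthesis, rose from 1496 and 2085 to 4674 and 6257 (log2 change 1.61, SE 0.32, limma adjusted p = 0.0334). Trib3, a target of ATF4, differed widely between the day 2 libraries, at 544 and 1666, against 2650 and 2467 at day 4 (log2 change 1.42, limma adjusted p = 0.344). None of 11 p53 targets was called, with a median of 0.09, and 1 fell with the replicate block.

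Markers of other cell types were present at different levels. Of 12 macrophage and leukocyte markers, Emr1 and Cd3e were at 0 in all 4 knockdown libraries and Ptprc was at 0 in 3 and at 2.34 in 1. The summed level of the 12 was 816 to 877 at day 2 and 845 to 959 at day 4, most of it Itgam, at 537 and 555 at day 2 and 400 and 530 at day 4, and Cd14, at 204 and 224 and then 260 and 235. The 7 tested had a median change of 0.64, 6 were positive, and in 5 both day 4 libraries lay above both day 2 libraries, against 29.6% of all genes. None was called without the replicate block and 2 rose with it. Lyz2, the lysozyme of myeloid cells, was at 31.8 and 34.3 at day 2 and at 87.5 and 93.9 at day 4 (log2 change 1.40, limma adjusted p = 0.0771, and 0.0473 with the block). Csf1r was at 2.05 and 7.06 at day 2 and at 19.8 and 26.6 at day 4 (log2 change 2.04, limma adjusted p = 0.0587, and 0.0249 with the replicate block). The 8 endothelial markers summed to 80.7 to 95.5 at day 2 and 94.6 to 102 at day 4, and Epcam, Krt5, Acan and Sost were at 0 throughout. The muscle list summed to 65.7 to 96.8 at day 2 and 156 to 229 at day 4, most of it Des, the intermediate filament desmin, which is also found in smooth muscle and fibroblasts and was called only with the replicate block (limma adjusted p = 0.011). What part such cells may have in the changes above was not tested.

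The same 2 days were then compared between the arms, since a change in knockdown cells may be shared with the control. In scrambled cells 1218 genes (7.66%) changed, and 3446 did with the replicate block, of which 2188 were also called in knockdown cells with it. Of the 1119 genes called in knockdown cells, 719 (64.3%) were also called in scrambled cells, which is 59.0% of the scrambled calls, and none of the 719 had opposite signs. Across the 15896 genes, which are not independent replicates, the changes of the arms had a Pearson r of 0.80. In the limma test of the difference between the arms' changes, 0 genes were called at an adjusted p under 0.05, with 289 (1.82%) at an unadjusted p under 0.05. A limma voom fit on the recovered reads also called 0. In that fit, then, no gene's change was shown to differ between the arms, whichever arm called it.

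**Figure D4:**
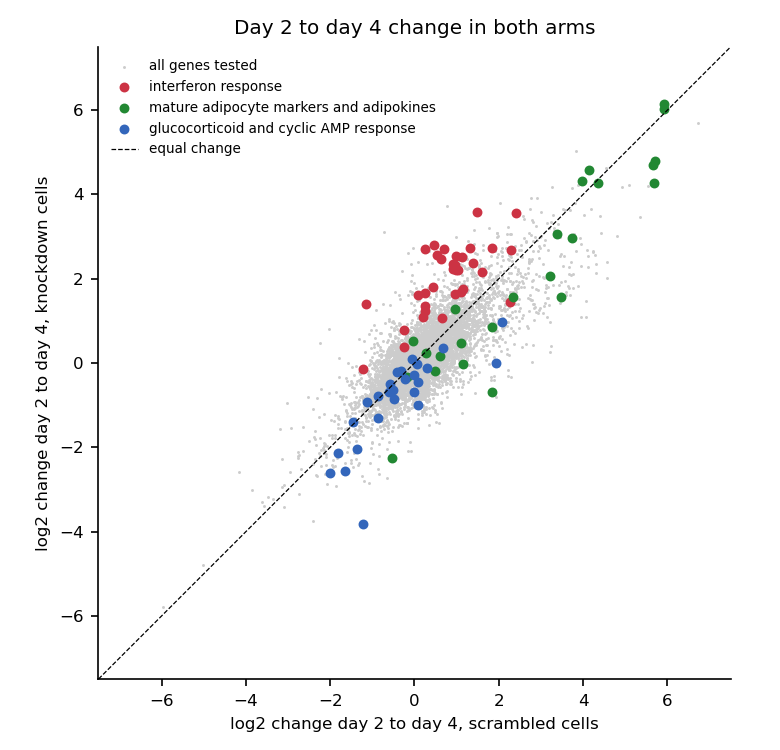
Log2 change from day 2 to day 4 of each gene tested, in scrambled cells (horizontal axis) and knockdown cells (vertical axis), with 3 gene lists in colour and the line of equal change dashed. The interferon list lies mostly above the line (33 of 34 members), while the adipocyte list lies mostly below it (18 of 24 members), and no single gene was called as differing.

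Fat cell genes rose in both arms from different levels. Adipoq was at 198 and 280 in the scrambled libraries of day 2 and at 7899 and 26140 in those of day 4, above the knockdown libraries at both days, and its change of 5.92 differed from that in knockdown cells by 0.10 (95% interval -1.94 to 2.14). Fabp4 changed by 4.14 in scrambled cells, a difference of 0.44 (95% interval -1.57 to 2.46). These intervals span about 2 log2 units on either side, so they do not show that the arms acted alike. The adipocyte list had a median change of 1.56 in knockdown and 2.78 in scrambled cells, where 12 of the 24 rose. Its arm difference was positive in 6 of the 24 members, with a median of -0.64, and none was called after adjustment. In 22 of the 24 tested adipocyte genes the second scrambled library of day 4 was above the first. The share over all genes was not computed for that pair.

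The interferon list had a median change of 2.21 in knockdown and 0.91 in scrambled cells, where 3 of the 34 rose, and 11 with the replicate block. The arm difference was positive in 33 of the 34 members, with a median of 1.20 against 0.00 for all genes tested. An unadjusted limma p under 0.05 was reached by 20 members, against 1.82% of all genes, but none was called after adjustment. For members with few reads in scrambled cells, the 2 counts added before the log2 understate the scrambled change and so widen this difference. Oas2 went from 1.24 and 0 to 8.67 and 2.73 there. Its ratio of means was 9.23 in scrambled and 11.9 in knockdown cells, while its log2 changes were 1.48 and 3.59. Isg15 was at 59.3 and 64.5 in the scrambled libraries of day 2 and at 118 and 70.0 in those of day 4, and its change there was 0.54 (limma adjusted p = 0.347). The difference of its changes was 2.03 (SE 0.45, 95% interval for this 1 gene 0.97 to 3.08, limma adjusted p = 1.00). Ifit3 was at 8.65 and 9.47 and then at 77.1 and 41.8 in scrambled cells, a rise of 2.41 that was itself called (limma adjusted p = 0.0226), from a level far below that of any knockdown library.

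Among the genes that fell, several had smaller changes in scrambled cells, Lcn2 and Serpina3n among them. Retnla changed by -0.84 there and Dio2 by -2.41, against -2.63 and -3.75 in knockdown cells. For Pde4b and Nr4a1 the scrambled changes were -1.64 and -1.36, against -2.57 and -2.04. None of these differences was called without the replicate block. Lcn2 was at 3039 and 4522 in the scrambled libraries of day 2 and at 1214 and 2087 in those of day 4, a change of -1.22 against -3.82 in knockdown cells (difference -2.60, SE 0.45, 95% interval -3.65 to -1.55, limma adjusted p = 1.00, and 0.0223 with the replicate block). Serpina3n was at 1034 and 1131 and then at 714 and 791, a change of -0.52 against -2.26 (difference -1.74, SE 0.24, limma adjusted p = 1.00). Dusp1, Prg4, Kif26b and Wnt4 fell in scrambled cells as well, with changes of -1.83, -3.09, -2.24 and -2.76.

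The calls rested on all 4 knockdown libraries. Leaving out 1 of them left a single library on 1 day, assumed to vary like the other groups, and gave 38 called genes without the first day 2 library, 109 without the second, 43 without the first day 4 library and 32 without the second. Of the 28 interferon genes, the corresponding counts were 0, 10, 1 and 0, of the 11 glucocorticoid and cyclic AMP genes 4, 5, 4 and 3, of the 8 adipocyte genes that rose 1, 1, 1 and 0, and of the 7 matrix genes 0, 1, 0 and 0. Leaving out a scrambled library of day 2 gave 441 and 437 called genes, and leaving out the first or second scrambled library of day 4 gave 2366 and 2381. With the replicate block, 2955 genes were called, and these included all 1119.

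Other settings ended some calls among the 58 called genes that the naming rule took or that were added to it. Other list members named in the text are not among these 58 and are covered by the list counts only. Neither trend nor robust estimation ended 14 calls, those of Abhd5, C1s, Col11a1, Col1a2, Col6a3, Cxcl5, Dcn, Gpd1, Irs2, Phgdh, Plin1, Postn, Rxra and Tap1. A fit of all 20 libraries ended 11, those of Abhd5, Col11a1, Col1a2, Col3a1, Col6a3, Cxcl5, Irs2, Pdgfrb, Plin1, Postn and Wisp1. The block in the 4 knockdown libraries alone ended those of Adipoq, Cdsn (limma adjusted p = 0.16) and Gpd1. Voom on the recovered reads ended those of Gpd1 and Plin1, quantile normalization those of Abhd5, Rxra and the collagens Col1a2 and Col3a1, and scaling by library totals those of Abhd5 and Cxcl5. Of the lists, the interferon response kept its direction with 19 genes that rose with neither trend nor robust estimation and 18 with all 20 libraries. With neither trend nor robust estimation, 7 glucocorticoid and cyclic AMP genes fell, and 4 MHC class I, 2 collagen and 2 matrix genes rose. The 2 matrix genes were Adamts5 and Wisp1, so Sparc, Eln and Nov were not called there. With all 20 libraries 1 collagen gene rose, and with voom 5 adipocyte genes rose, which no longer included Adig, Mrap and Lgals12.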

How the data were processed

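Gene expression was measured by RNA-seq (TruSeq RNA Sample Prep Kit V2, per the labels) in 20 libraries, of which the 8 of days 2 and 4 were fitted. TopHat2 2.0.13, Bowtie2 2.2.3.0, SAMtools, DESeq2 1.10.1 and the mouse build mm9 are named in the submitters' processing notes. The read counter and the annotation are not given in the sources used here. For each day the authors deposited a table of variance-stabilised log2 values per library. The same tables hold a gene's mean signal (its mean normalised count), deposited by the authors and used here for the filter. They also hold a log2 fold change, its error, a test score and p-values that the authors deposited for knockdown against scrambled cells, which were not used. No per-library column was left unused (0).

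Normalised counts were recovered by inverting the transformation in each table of 33581 genes, and 100% of recovered values up to 100 reads lay within 0.02 reads of a whole number. Libraries were rescaled together by the median of ratios. The filter kept genes whose mean normalised count reached 10 in either table. They were tested with limma 3.58.1 (R 4.3.3) on log2(normalised count + 2), with trend and robust estimation, 4 group means, 4 residual degrees of freedom and Benjamini-Hochberg adjustment over 15896 genes, called at 0.05. The script was tested on simulated data.

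Members, gene lists and tests were chosen with earlier results of these data known. The naming rule took, in each direction, the 10 called genes above the median level that changed most and whose days did not overlap, up to 4 members per list by adjusted p, and 9 fixed genes (Adipoq, Axin2, Cebpa, Cebpb, Cebpd, Fabp4, Lef1, Pparg, Tcf7l2). Other list members were named for their role, or to account for a list, after their values were seen. In the 32 lists, 8 genes had no matching symbol and were not analysed here, and 3 tested or listed genes are not reported by name here.

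Both hairpins have libraries numbered 1 and 2 in the labels. Deviations from group means of same-numbered libraries correlated at 0.343 to 0.54 over the 6 pairs of groups (0.444 between the knockdown groups), so the numbers were read as pairing the libraries, although the labels name no shared culture. The fit described leaves the block out. The blocked value is given beside genes named in the text whose call it changes and beside lists whose counts it moves. No library was a copy of another. Promoter windows came from RefSeq (GRCm38.p6). Alternatives covered the pseudocount, filter, scaling, libraries fitted, estimation of the spread, voom, the block and each library left out.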

Additional observations from a re-analysis of the deposited data

Results flagged for a closer look

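The change of Lcn2 from day 2 to day 4 differed between the arms when the replicate number was a block: the fall was larger in knockdown cells by a log2 difference of -2.60 (limma adjusted p = 0.0223, 2 libraries per group). Without the block the same difference was not called (limma adjusted p = 1.00). Lcn2 was at 332 and 459 normalised counts in the knockdown libraries of day 4 and at 1214 and 2087 in the scrambled ones, without overlap, while at day 2 the knockdown libraries held 4862 and 6292 and the scrambled ones 3039 and 4522.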

How the results depend on the processing

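The 1119 calls of the knockdown comparison became 2955 with the replicate block (1488 higher, 1467 lower), 2146 in the 4 knockdown libraries alone, 688 with neither trend nor robust estimation, and 591 when a change of at least 2-fold was also asked. Of the fits added after the data were seen, the block in the 4 knockdown libraries alone gave 5541 and voom with the block 2863. Leaving out 1 library gave 32 to 2381. The other alternatives gave 860 to 1148. The causes of these differences were not tested. The arm difference had 1 call with the replicate block and 1 with voom and the block, both Lcn2, and 0 to 67 when 1 library was left out. The 67 (17 higher, 50 lower) came without the first scrambled library of day 4, and every other library left out gave 0. None of the 58 called genes that the naming rule took or that were added to it turned direction. Other called list members in the text are covered by the list counts only. Among genes not called, leaving out 1 library spanned -0.75 to 0.26 for Cebpa and -0.29 to 0.02 for Lef1, and another scaling gave Ifitm3 0.01. Beside the list medians that turn in the text above, that of the stress response genes was -0.01 and that of cholesterol genes -0.04 without the first knockdown library of day 2, and that of the Wnt targets -0.01 without the second. With a stricter filter the median of the Wnt targets was -0.03. Quantile normalization gave -0.06 for brown and beige markers and -0.07 for epithelial and nerve markers. The former was -0.26 without the second knockdown library of day 4, and the latter -0.45 without the first of day 2. Of 58 named genes called, the block lost 0 and each of the 4 fits without a knockdown library lost 39 to 48. Of 77 named and tested genes not called, the block gained 33. Intervals of the arm difference were wide with 2 libraries per group, and genes with few reads carry understated changes.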
